A study of Mus musculus with 4 samples.

Results

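Glypicans and syndecans are the heparan sulfate proteoglycans that cells hold at their surface. The 9 genes described here, Gpc1, Gpc2, Gpc3, Gpc4 and Gpc6 and Sdc1, Sdc2, Sdc3 and Sdc4, were taken by gene symbol from 21965 genes quantified in the sciatic nerve of mice at postnatal day 7. Nerves of control mice were compared with nerves of Zeb2 cKO mice, a conditional knockout of the zinc finger transcription factor Zeb2. Both groups had a mixed strain background, and RNA of pooled nerves went into each sample. The Cre line, the cells it acts in and the deleted part of Zeb2 are not given in the sources used here. Each group has 1 table of expression values, which is listed under both of its 2 samples and holds 1 column of levels. Whether it stands for 1 of these samples or for both together is uncertain, and it is called 1 library below. Each gene thus has a single level per group, and no test between the conditions can be made.

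Glypicans are tethered to the outer membrane leaflet by a lipid anchor, whereas syndecans cross the membrane and have a short cytoplasmic tail that binds scaffold proteins and kinases. Both carry heparan sulfate, a sulfated sugar chain that binds growth factors, morphogens, collagens and fibronectin, and they present these ligands to signalling receptors or keep them away from them. In peripheral nerve, syndecan-3 and glypican-1 are known on Schwann cells, where they bind a type V collagen of the endoneurial matrix. Several of the other members are also made by fibroblasts and endothelial cells, so whole nerve reads the sum over many cell types.

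Levels are given in FPKM, the fragments per kilobase of transcript scaled to library size, which allows levels of different genes to be compared. Total RNA of a whole nerve cannot tell fewer cells of a type apart from less RNA per cell. The control library was 1.47 times as deep as the other, with an estimated 29771760 and 20316941 reads on annotated transcripts. The 9 members held between 344 and 25669 estimated reads per library, and intervals below are 95% intervals for this counting error alone, not for the spread between animals or libraries. Zeb2 itself stood at 34.4 FPKM in control nerve and 19.5 FPKM in Zeb2 cKO nerve, 0.568 times as much (counting interval 0.548 to 0.588). This is the direction of the labels, read over all exons of its only transcript row.

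All 9 members had more transcript in the Zeb2 cKO library. The increase was 3.35-fold for Sdc4, 3.06-fold for Gpc6, 3.03-fold for Sdc2 and 2.53-fold for Sdc1. It was 2.11-fold for Gpc2, 1.84-fold for Gpc3, 1.63-fold for Sdc3, 1.37-fold for Gpc1 and 1.29-fold for Gpc4. The counting interval of the ratio lay above 1 for all 9. The share of all genes with such an interval was not counted, so this does not set the members apart. On the scale log2((FPKM Zeb2 cKO + 1)/(FPKM control + 1)), which is used wherever a log2 ratio is given and which understates the change of low genes, 4 of 9 members were at least 2-fold higher and 0 were 2-fold lower. Among all 12903 genes with a mean of at least 1 FPKM, 8.59% were that much higher, 6.25% that much lower and 14.8% either. At a lower bar of 1.5-fold, 7 of 9 members were higher, beside 19.7% of all genes. A ratio above 1 was itself common, at 67.6% of all genes, and the log2 ratio of the median gene was 0.18. All 9 members lay above that median, and the median member had a log2 ratio of 0.91. Rescaling the Zeb2 cKO library to the median gene changed the split over all genes from 1109 higher and 806 lower to 784 higher and 958 lower. After that rescaling the 9 members had log2 ratios from 0.15 for Gpc4 to 1.5 for Sdc4, and Sdc4, Sdc2, Gpc6 and Sdc1 were still at least 2-fold higher.

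Promoter sequence was looked at because the members were higher together and because Zeb2 binds DNA at E-box type sites with the letters CACCT. Windows of 250 bases before the annotated start, from the RefSeq table of build GRCm38.p6, were found by symbol for 6 of the 9 members, while Gpc1, Gpc6 and Sdc2 have no entry. The windows printed are those of Sdc4 and Sdc1, the members at least 2-fold higher among these 6, of Gpc3, the most abundant, and of Gpc4, the least changed. They lie at chr2:164443189-164443438 (minus strand, Sdc4), chr12:8771146-8771395 (plus strand, Sdc1), chrX:52613975-52614224 (minus strand, Gpc3) and chrX:52164924-52165173 (minus strand, Gpc4). Each is written 5′ to 3′ in the direction of the gene, and capitals mark matches to CACCT or TATAA on either strand.
Sdc4: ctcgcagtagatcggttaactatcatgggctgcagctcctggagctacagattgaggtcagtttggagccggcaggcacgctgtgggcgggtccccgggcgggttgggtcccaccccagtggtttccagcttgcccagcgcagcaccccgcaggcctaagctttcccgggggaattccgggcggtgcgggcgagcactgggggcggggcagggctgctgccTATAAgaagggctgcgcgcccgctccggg
Sdc1: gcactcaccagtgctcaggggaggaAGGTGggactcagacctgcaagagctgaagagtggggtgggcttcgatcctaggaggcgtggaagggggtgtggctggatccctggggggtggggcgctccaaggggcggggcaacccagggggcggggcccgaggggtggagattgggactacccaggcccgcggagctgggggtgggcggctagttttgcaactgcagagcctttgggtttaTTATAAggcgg
Gpc3: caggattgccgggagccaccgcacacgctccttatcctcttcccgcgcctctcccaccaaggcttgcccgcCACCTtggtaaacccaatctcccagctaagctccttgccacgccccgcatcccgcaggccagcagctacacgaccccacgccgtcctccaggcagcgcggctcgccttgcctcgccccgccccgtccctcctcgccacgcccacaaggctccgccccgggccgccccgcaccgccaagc
Gpc4: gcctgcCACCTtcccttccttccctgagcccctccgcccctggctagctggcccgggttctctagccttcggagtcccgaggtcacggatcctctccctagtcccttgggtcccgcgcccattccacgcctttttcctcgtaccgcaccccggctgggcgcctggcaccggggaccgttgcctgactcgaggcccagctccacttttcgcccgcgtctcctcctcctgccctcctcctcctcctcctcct
CACCT or its reverse AGGTG was found in 3 of 6 member windows, those of Gpc3, Gpc4 and Sdc1, against 46.0% of 32817 windows of the same length in the table. The longer CACCTG, which contains CACCT, was in 0 of 6, against 17.2%. TATAA was in the windows of Sdc1 and Sdc4 only, among these 6, and in 22.8% of all windows. In Sdc4 it began 29 bases before the start. In Sdc1 the letters TTATAA held it on both strands, beginning 10 bases before the start on the plus strand. The GC box core GGGCGG or its reverse was in 6 of 6 member windows, against 32.7% of all windows. The member windows were also richer in G and C, with a median of 68.2% against 52.4% over all windows. These matches describe letters in a window and do not show binding.

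The syndecans were the family with more members past 2-fold. Sdc4 encodes syndecan-4, a fibronectin co-receptor of focal adhesions (chromosome 2, 164249747 to 164268688, build mm9 as for all gene positions below). Its level was 25.4 FPKM in the control library (counting interval 24.4 to 26.5) against 85.3 FPKM in Zeb2 cKO nerve (83.0 to 87.7). The ratio of 3.35 (3.19 to 3.53) was the highest of the 9, and its log2 ratio of 1.71 was exceeded by 338 of all measured genes. By level, Sdc4 ranked 2614 among measured genes in control nerve and 726 in Zeb2 cKO nerve.

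Sdc2 encodes syndecan-2, which fibroblasts and endothelial cells make in quantity (chromosome 15, 32850478 to 32964476). It stood at 23.4 FPKM in control nerve (22.5 to 24.3) and 71.0 FPKM in Zeb2 cKO nerve (69.1 to 72.8), a ratio of 3.03 (2.90 to 3.18). Its log2 ratio of 1.56 was above that of 96.8% of measured genes. Sdc1 encodes syndecan-1, best known from epithelia and plasma cells (chromosome 12, 8778202 to 8800493). The control library held 9.76 FPKM of it (9.18 to 10.4) and the Zeb2 cKO library 24.7 FPKM (23.6 to 25.8). This was the lowest syndecan in both libraries, yet its ratio of 2.53 (2.34 to 2.73) exceeded that of Sdc3. When the Zeb2 cKO values were rescaled so that the median gene had equal levels, its log2 ratio of 1.26 became 1.06, and with a pseudocount of 5 FPKM it was 1.01, just above 2-fold.

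Sdc3 encodes syndecan-3, a syndecan of Schwann cells and axons and a receptor of the growth factor pleiotrophin (chromosome 4, 130348452 to 130382233). It was the most abundant syndecan in control nerve at 48.6 FPKM (47.6 to 49.6), and stood at 79.2 FPKM in Zeb2 cKO nerve (77.6 to 80.8). The ratio of 1.63 (1.58 to 1.68) was the smallest of the family and stayed within 2-fold. The order of the syndecans therefore differed between the libraries. In control nerve Sdc4 was at 0.524 of the Sdc3 level (0.4996 to 0.549), and in Zeb2 cKO nerve it was at 1.08 times that level (1.04 to 1.11). Sdc2 was at 0.481 of Sdc3 in the control library (0.461 to 0.503) and at 0.896 of it in the other (0.867 to 0.926).

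**Figure D1:**
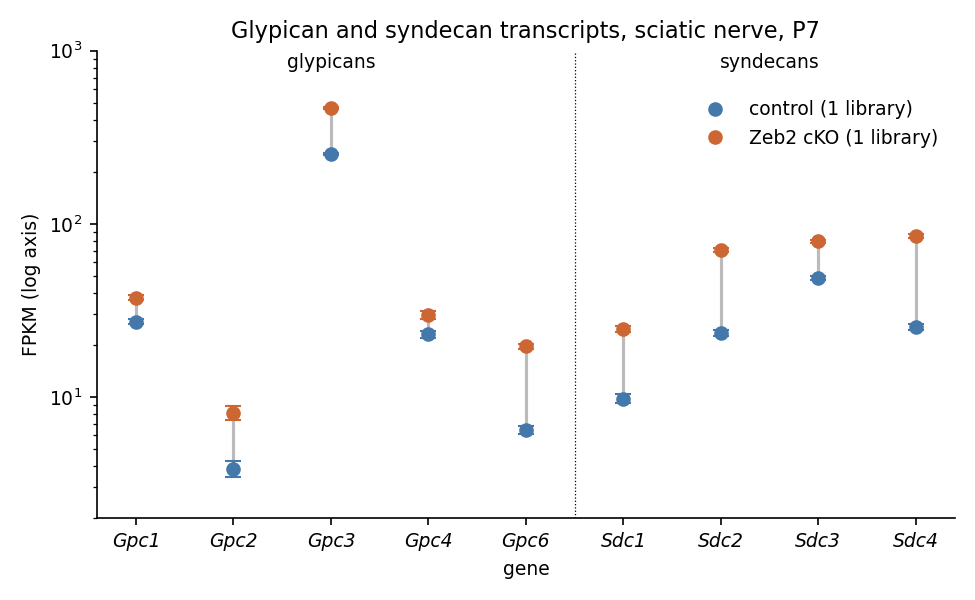
FPKM of each gene on a log axis in the control library (blue) and the Zeb2 cKO library (orange), 1 library each, with bars for the 95% counting interval. All 9 orange points lie above the blue ones, and the gap is widest for Sdc4, Gpc6 and Sdc2 (3.35-fold, 3.06-fold and 3.03-fold).

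Among the glypicans, only Gpc6 was at least 2-fold higher with the pseudocount. Gpc6 encodes glypican-6, a growth factor co-receptor of mesenchymal cells (chromosome 14, 117324537 to 118378751). Its level was 6.43 FPKM in the control library (6.11 to 6.76) and 19.6 FPKM in the Zeb2 cKO library (19.0 to 20.3). That ratio of 3.06 (2.87 to 3.25) did not differ from that of Sdc2 beyond counting error. Gpc6 is the only member with 2 transcript rows, of 6732 and 6762 bases. The shorter row went from 5.92 to 19.6 FPKM. The longer row was at 0.508 FPKM in control nerve and 0.000387 FPKM in Zeb2 cKO nerve, where it is below 1 estimated read. The rows differ by 30 bases of length, and how Cufflinks divides reads between such similar rows is uncertain, so the gene sum is the value to read. Beside it on the same chromosome, with 0 other symbols of the tables in between, lies Gpc5, the glypican outside the 9. It rested on 11 estimated reads in the control library (0.110 FPKM) and was listed at 0 in the other, which allows up to 3 reads or 0.0428 FPKM.

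Gpc3 encodes glypican-3, a regulator of body growth that binds hedgehog and Wnt proteins (chromosome X, 49625604 to 49967151). It was by far the most abundant member, at 252.9 FPKM in control nerve (249.5 to 256.4) and 466.3 FPKM in Zeb2 cKO nerve (460.6 to 472.1). These levels ranked 227 and 114 among the measured genes. The ratio was 1.84 (1.81 to 1.88), and its narrow interval reflects 20441 and 25669 estimated reads. Its neighbour on the same chromosome, 107.5 kb away and with 0 symbols in between, is Gpc4. Gpc4 encodes glypican-4, a heparan sulfate carrier known from astrocytes and from morphogen signalling (chromosome X, 49406195 to 49518100). It had 23.0 FPKM in the control library (22.0 to 24.1) and 29.7 FPKM in the Zeb2 cKO library (28.3 to 31.2), a ratio of 1.29 (1.21 to 1.38). The neighbours thus differed in both level and ratio, with Gpc3 at 11.0 times the Gpc4 level in control nerve (10.5 to 11.5) and at 15.7 times in Zeb2 cKO nerve (14.9 to 16.5). The Gpc4 log2 ratio of 0.35 was the lowest of the 9, but 66.7% of all measured genes had a lower one.

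Gpc1 encodes glypican-1, the glypican of Schwann cells and axons (chromosome 1, 94728263 to 94756773). It was at 27.2 FPKM in control nerve (26.3 to 28.1) and 37.4 FPKM in Zeb2 cKO nerve (36.1 to 38.7). Its ratio of 1.37 (1.31 to 1.44) did not differ from that of Gpc4 beyond counting error. Gpc1 and Sdc3 were thus among the 3 smallest ratios, and which cells carry each member was not tested. Gpc2 encodes glypican-2, a glypican of developing neurons (chromosome 5, 138714888 to 138721165), and was the least abundant member in both libraries. It had 3.84 FPKM in the control library (3.44 to 4.27) and 8.09 FPKM in the other (7.39 to 8.83). By plain FPKM this was 2.11-fold (1.83 to 2.42), and with the pseudocount its log2 ratio of 0.91 fell short of 2-fold. With a pseudocount of 0.1 FPKM it was 1.06, which made 5 of 9 members at least 2-fold higher. Small RNA genes lie inside 2 members, Mir149 in Gpc1 and Mir717 in Gpc3, and 0 symbols overlapped the other 7.

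**Figure D2:**
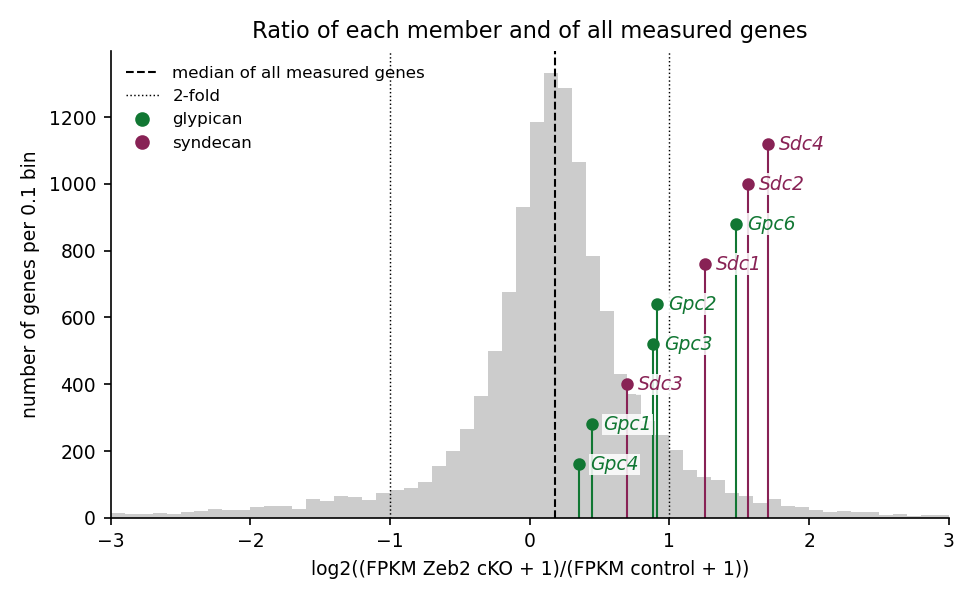
The log2 ratio of all 12903 measured genes (grey, genes per bin of width 0.1, with 235 genes beyond the axis limits of 3 not drawn), its median (dashed) and 2-fold (dotted), with each glypican (green) and syndecan (purple) marked at a height chosen for legibility. All 9 members lie to the right of the median of 0.18, from 0.35 for Gpc4 to 1.71 for Sdc4.

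The order of levels showed how far the members stood apart. In control nerve it ran Gpc3, Sdc3, Gpc1, Sdc4, Sdc2, Gpc4, Sdc1, Gpc6 and Gpc2. Sdc2 and Gpc4 did not differ there beyond counting error (ratio 1.02, 0.959 to 1.08), and Gpc1 was just above Sdc4 (1.07, 1.01 to 1.13). In Zeb2 cKO nerve the order was Gpc3, Sdc4, Sdc3, Sdc2, Gpc1, Gpc4, Sdc1, Gpc6 and Gpc2, and every neighbouring pair differed beyond counting error. Gpc1 was at 1.07 times the Sdc4 level in the control library and at 0.438 of it in the other (0.419 to 0.458). Gpc6 was at 0.279 of the Gpc4 level in control nerve (0.261 to 0.299) and at 0.661 of it in Zeb2 cKO nerve (0.623 to 0.702). In the order of ratios, 3 neighbouring pairs did not differ beyond counting error, namely Gpc6 and Sdc2, Gpc2 and Gpc3, and Gpc1 and Gpc4. Spread between animals is not in these intervals, so small steps in either order have no replicate check.

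Summed over the members, glypican FPKM was 313.4 in control and 561.1 in Zeb2 cKO nerve, a ratio of 1.79, and syndecan FPKM was 107.2 and 260.2, a ratio of 2.43. The median log2 ratio was 0.88 over the 5 glypicans and 1.41 over the 4 syndecans. Gpc3 made up 80.7% of the glypican sum in the control library and 83.1% in the other, and gave 86.1% of the difference between them. Without Gpc3 the glypican sums were 60.5 and 94.8 FPKM, a ratio of 1.57. The makeup of the syndecan sum differed more. Sdc3 supplied 45.3% of it in control and 30.4% in Zeb2 cKO nerve, Sdc4 supplied 23.7% and 32.8%, and Sdc2 supplied 21.8% and 27.3%. Sdc1 held 9.10% and 9.49%. Of the difference in the syndecan sum, Sdc4 gave 39.1%, Sdc2 31.1%, Sdc3 20.0% and Sdc1 9.76%.

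**Figure D3:**
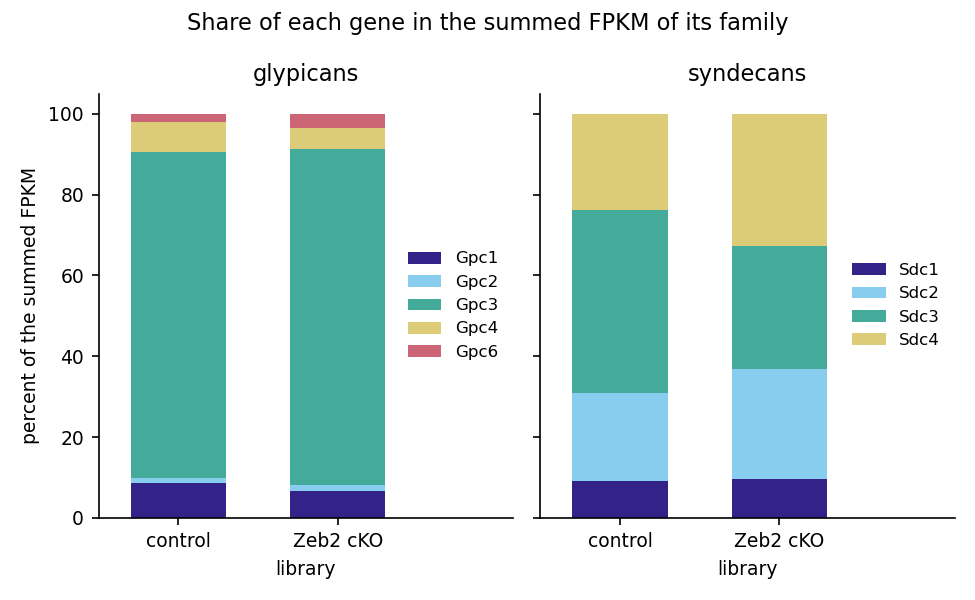
Share of each gene, in percent of the summed FPKM of its family, in the control and the Zeb2 cKO library (1 library each), for glypicans (left) and syndecans (right). Gpc3 fills most of both glypican bars (80.7% and 83.1%), while the Sdc3 share is smaller and the Sdc4 and Sdc2 shares larger in the Zeb2 cKO bar.

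Markers of the cells that could carry these transcripts differed between the libraries as well. For comparison, 8.59% of all measured genes were at least 2-fold higher and 6.25% lower. Of 15 measured markers of myelinating Schwann cells, led in control nerve by Pmp22, 15 were at least 2-fold lower, and their summed FPKM was 29415 in control and 1399 in Zeb2 cKO nerve. Of 17 skeletal muscle markers, led in control nerve by Acta1, 17 were that much lower, with sums of 9190 and 1130 FPKM. Of 10 markers of immature and nonmyelinating Schwann cells, 5 were higher and 3 lower (129.1 and 837.5 FPKM, and 125.5 and 231.7 FPKM without Gfap and Slc1a3). Markers shared by all stages of the Schwann cell lineage were lower for 3 of 6 and higher for 0 (1168 and 472.1 FPKM). Among perineurial markers, led in Zeb2 cKO nerve by Cldn1, 7 of 10 were at least 2-fold higher (121.8 and 367.1 FPKM), and among fibroblast markers, led by Col3a1, 6 of 12 (5716 and 9459 FPKM). Endothelial markers were 2-fold apart for 0 of 12, all with ratios above 1 (244.3 and 375.6 FPKM). Of the adipocyte markers, led by Fabp4, 4 of 5 were higher (215.9 and 526.0 FPKM), and macrophage markers were 2-fold apart for 0 of 11 (174.4 and 185.1 FPKM). Pericyte and smooth muscle markers were higher for 2 of 10 (216.8 and 332.4 FPKM), and neuronal transcripts were 2-fold apart for 0 of 6 measured (41.6 and 34.2 FPKM). Immediate early genes, which respond to tissue handling, were higher for 4 of 12 (116.7 and 237.2 FPKM). No marker of these lists was listed at 0 in either library. Some markers counted as 2-fold apart were below 1 FPKM in 1 library and passed the filter on low values only through the other. These were Krt23, Gfap and Fosb, which passed through the Zeb2 cKO library, and Cadm2 and Ttn, which passed through the control library. The part of these cell types, and of the handling, in the member values was not tested.

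Enzymes that build and edit the heparan sulfate chains of the members were described in separate lists. The 11 listed genes of chain initiation, linker and elongation had 10 measured, of which 0 were 2-fold apart, with log2 ratios from 0.0037 to 0.82 and a median of 0.50. Ext2, a subunit of the chain polymerase and the most abundant of them, had 27.4 FPKM in control and 39.7 FPKM in Zeb2 cKO nerve. Of 17 chain modification genes in the tables, 11 were measured, 6 of which were at least 2-fold higher and 0 lower. The shares over all measured genes were 8.59% and 6.25%. The 6 include Hs3st3a1 and Hs3st3b1, which passed the filter on low values only through the Zeb2 cKO library. In a count chosen after the data were seen, without these genes 4 of 9 were higher, with a median of 0.78. At 1.5-fold, 4 of 10 initiation genes and 5 of these 9 were higher, beside 19.7% of all genes. The difference between the steps was not tested.

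Sulf1 and Sulf2, extracellular enzymes that remove sulfate groups from finished chains, had ratios of 7.27 and 3.03, from 6.02 to 43.7 FPKM and from 9.51 to 28.8 FPKM. The Sulf2 locus overlaps that of Ncoa3. Glce, the epimerase that turns glucuronic into iduronic acid, went from 5.13 to 18.0 FPKM (3.51-fold). Hs3st1, a sulfotransferase acting late on the chain, went from 2.20 to 10.6 FPKM (4.83-fold). Its relatives Hs3st3a1 and Hs3st3b1 were at 0.252 and 0.141 FPKM in control and at 2.21 and 2.26 FPKM in Zeb2 cKO nerve. Both were within 2-fold with a pseudocount of 5 FPKM (log2 ratios 0.46 and 0.50), and Hs3st3a1 overlaps F930015N05Rik. Ndst1, which starts chain sulfation and was the most abundant of the list in control nerve, was at 34.9 and 34.3 FPKM. Among 11 measured genes of chain degradation and sulfate supply 0 were 2-fold apart with the pseudocount of 1 FPKM. By plain FPKM, Hpse of this list was 2.56-fold higher (0.662 and 1.70 FPKM), with a log2 ratio of 0.70 on the pseudocount scale. The most abundant, Papss1, an enzyme that makes the sulfate donor, had 88.1 FPKM in control and 59.3 FPKM in Zeb2 cKO nerve.

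Other proteoglycans that can carry heparan sulfate did not share one direction. Of 12 measured, 2 were at least 2-fold higher, Col18a1, a basement membrane collagen (36.1 and 197.3 FPKM), and Cd44, a hyaluronan receptor (11.1 and 33.7 FPKM). Spock1, a testican, was lower at 2.52 and 0.222 FPKM, though within 2-fold with a pseudocount of 5 FPKM (log2 ratio -0.53). Spock1 passed the filter on low values only through the control library. Over all measured genes, 8.59% were at least 2-fold higher and 6.25% lower, so these small counts do not set the list apart. Hspg2, the basement membrane proteoglycan perlecan and the most abundant of the list in control nerve, was at 155.8 and 114.5 FPKM, so it had the opposite direction to the 9 members at the cell surface.

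Proteases and lipases that can release members from the membrane had 8 of 12 measured. Of these, 1 was at least 2-fold higher and 1 lower, beside 8.59% and 6.25% of all measured genes. Adamts1, a metalloprotease, was 3.27-fold higher (4.88 and 16.0 FPKM), and Adam10, a sheddase of many surface proteins, was 2.15-fold lower (153.7 and 71.6 FPKM). Mmp2, the most abundant over both libraries together, was within 2-fold at 106.1 and 194.4 FPKM. Of 18 measured proteins that bind or act with syndecan tails, 2 were higher and 3 lower, beside the same shares of all genes. Counts this small do not set either list apart. The actin crosslinker Actn1 and the kinase Src were 3.05-fold and 2.59-fold higher. The kinases Fyn and Prkca and the Rac exchange factor Tiam1 were 2.49-fold, 2.52-fold and 2.14-fold lower. The size for Tiam1 is uncertain. Its FPKM ratio of 0.467 lies outside the counting interval from its estimated reads (0.594 to 0.678), and its highest transcript row alone gave a log2 ratio of -1.91. With a pseudocount of 5 FPKM the log2 ratios of Src, Prkca and Tiam1 were within 2-fold (0.91, -0.71 and -0.79), and with the highest transcript row alone that of Fyn was (-0.92). The small GTPase Rhoa, the most abundant of this list, was at 204.1 and 220.3 FPKM.

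Ligands and co-receptors had 35 of 41 measured, with a median log2 ratio of 0.55. Of these, 13 were at least 2-fold higher and 4 lower, beside 8.59% and 6.25% of all genes. With a pseudocount of 5 FPKM, Fzd7, Ptch1, Ror2, Wnt5a and Slit2 were within 2-fold (log2 ratios 0.84, 0.93, 0.83, 0.73 and -0.90). Fzd7 and Ptch1 were also within 2-fold after rescaling to the median gene (0.91 and 0.89). Ptn, the pleiotrophin that binds syndecan-3, was at 19.5 FPKM in control and 298.3 FPKM in Zeb2 cKO nerve (15.3-fold), beside the 1.63-fold ratio of Sdc3. Ptprz1, a receptor phosphatase for pleiotrophin, was 12.0-fold higher (3.17 and 37.9 FPKM). Hbegf, a heparin-binding growth factor, was 6.66-fold higher, and the matrix proteins Tnc and Thbs1 were 7.08-fold and 4.42-fold higher. Lrrtm4, a neuronal membrane protein that binds glypicans, was 11.5-fold lower (11.2 and 0.976 FPKM), and passed the filter on low values only through the control library. The integrin subunit Itgb1, the most abundant of the list in control nerve, was at 179.9 and 197.3 FPKM. Col5a3, the type V collagen chain that binds syndecan-3 and glypican-1 and which was singled out after its values were seen, was at 90.2 and 87.6 FPKM.

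**Figure D4:**
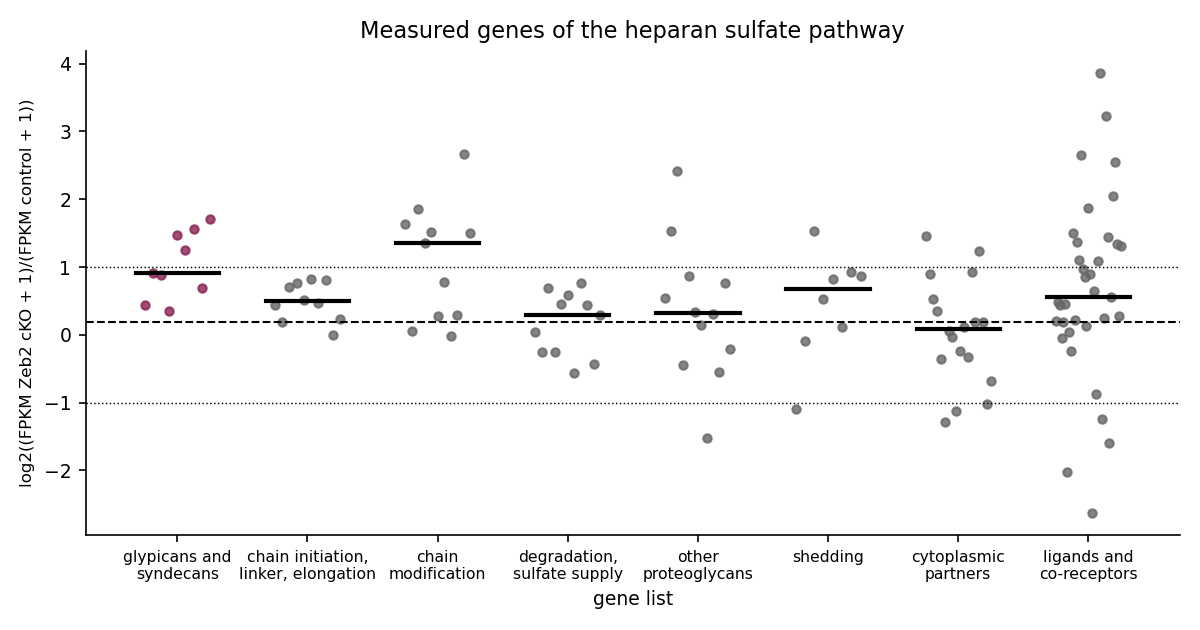
The log2 ratio (pseudocount 1 FPKM) of each measured gene in 8 lists, with the list median (bar), the median of all measured genes (dashed) and 2-fold (dotted). The members (purple) and the chain modification genes have medians of 0.91 and 1.36, the latter 0.78 without Hs3st3a1 and Hs3st3b1, which passed the filter only through the Zeb2 cKO library, and the other lists lie between 0.08 and 0.67.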

How the data were processed

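Per the labels' protocols, nerves were frozen, total RNA was extracted with Trizol and libraries were made with an Illumina TruSeq kit. The submitters' processing notes name CASAVA, TopHat, Cufflinks and Cuffdiff and the build mm9, without versions. The authors made the FPKM values with Cufflinks, with 1 row for each RefSeq transcript, per the file headers. The deposited coverage signal is an average depth over the bases of a transcript, without scaling to depth.

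FPKM was summed per symbol over rows with status OK in both libraries (295 of 28107 rows were left out). Coverage times length of long genes with a single row clustered lowest around 52.5 bases (median of 473 values), taken as 1 read. Counting intervals are 95% exact Poisson intervals for levels and Clopper-Pearson intervals for ratios. Neighbouring ratios were compared with a normal interval on the log scale. Genes whose mean reached 1 FPKM were called measured, and a pseudocount of 1 FPKM was used. Counts of genes 2-fold apart use this pseudocount, so some genes counted within 2-fold exceed it by plain FPKM. With 1 library per group there is no p-value. The members, lists and rules were chosen with earlier results of these data known. Named genes were the 9 members, Zeb2, the genes of each pathway list at least 2-fold apart (for more than 6, the 6 furthest from 0) and the most abundant of each list by the sum of both libraries. Gpc5, Col5a3 and Hpse were added after their values were seen. So were the ligand and co-receptor genes named only for falling within 2-fold at another setting. Of the list entries 262 matched by symbol, 1 by RefSeq accession and 1 did not match. Strand was not used, so overlapping genes cannot be told apart. Code was tested on simulated data, with Python 3.11.15, pandas 2.3.3 and SciPy 1.17.1. Alternatives were other pseudocounts, filters, scalings, rows and a fold of 1.5.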

Additional observations from a re-analysis of the deposited data

How the results depend on the processing

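No paired analysis was possible because each group has a single library here, which also means that none could be omitted. Under 8 alternatives each (pseudocounts of 0.1 and 5 FPKM, no filter, a mean of at least 5 FPKM, 2 scalings, the highest row and every status), 71 of 72 member values kept their side of 2-fold, and the remaining one was Gpc2 with a pseudocount of 0.1 FPKM. Part of this was fixed in advance. Both filter settings and every status could not change a member, because every member passes these filters and has only rows with status OK. The highest row could change Gpc6 alone, the only member with 2 rows. A fold of 1.5 gave 7 members, 11 chain assembly and modification genes and 3803 of all genes apart. A pseudocount of 5 FPKM gave 1006 of all genes in place of 1915. Rescaling to the median gene gave 784 genes higher and 958 lower in place of 1109 and 806, and 4 of 9 members were still at least 2-fold higher, with a median member at 0.73. The log2 ratio of Gpc4 ranged from 0.15 to 0.37 and that of Gpc3 from 0.67 to 0.88. Of 268 values of 34 other genes (Zeb2 and the pathway list genes 2-fold apart, without cell type markers), 15 (12 genes) fell within 2-fold and 0 turned direction. Here too part was fixed in advance. Both filter settings and every status left each log2 ratio of these genes unchanged, and a pseudocount of 0.1 FPKM could only enlarge it. Hs3st3a1, Hs3st3b1, Spock1 and Wnt5a did not reach a mean of 5 FPKM, so they have no value at that setting. With a mean of at least 5 FPKM, or without Hs3st3a1 and Hs3st3b1 (chosen after the data were seen), 4 of the 6 chain modification genes were left. Depth limits Gpc2 most, at 344 and 493 estimated reads.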
